A study of Homo sapiens with 8 samples.

Results

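The sestrins, the REDD proteins and the GADD45 proteins are small stress-induced regulators, and 7 of their genes were read from a count table of 35394 genes by gene symbol: SESN2 and SESN3 of the sestrins, DDIT4 (REDD1) and DDIT4L (REDD2), and GADD45A, GADD45B and GADD45G. All 7 were present in the table, and all 7 were among the 15006 genes tested. HCT116, a human colorectal cancer line of epithelial cells whose genotype label names a ras mutation, was kept for 24 h with PZH, short for the traditional Chinese medicine Pien Tze Huang, or received the solvent DMSO as control, for which the labels give no time. Poly(A) RNA was sequenced from 4 libraries per group. The labels give no PZH dose. The title of the study concerns reactive oxygen species and growth of colorectal cancer, so the question asked here is how the genes of these stress brakes differed between treated and control cells.

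Sestrins and REDD proteins restrain mTORC1, the kinase complex that couples nutrients to protein synthesis and growth. Sestrins do so by binding the GATOR2 complex upstream of the RAG GTPases, where SESN2 also serves as a leucine sensor, and REDD1 does so through the TSC1-TSC2 complex. GADD45 proteins bind and activate the kinase MAP3K4 upstream of p38 and JNK, and GADD45A also binds the replication clamp PCNA, the inhibitor CDKN1A (p21) and the mitotic kinase CDK1. Transcription of these genes is known to respond to amino acid shortage, stress of the endoplasmic reticulum, DNA damage, low oxygen and oxidants, through factors such as ATF4, CHOP, p53, FOXO and NRF2.

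Total counts were 19288836 to 19917571 per DMSO library and 18144117 to 18868057 per PZH library. Levels are given as CPM (a gene’s counts per megacount of its library), with library sizes scaled by TMM factors. Before that scaling, 3 counts correspond to 0.151 to 0.165 CPM. After it, the 3 counts of GADD45G in DMSO replicate 2 were 0.142 CPM. Counts were more concentrated in PZH, where the 10 most abundant genes held 11.0 ± 0.360% of them against 6.31 ± 0.0893% in the controls (SD over 4 libraries each; permutation p = 0.0286, exact and two-sided, also after adjustment over 2 measures). These shares use each library's own 10 genes. Without the 10 genes of largest count summed over all libraries in the fit, the call of each of the 7 genes was the same. The PZH libraries differed more among themselves, with a biological coefficient of variation of 8.02% against 3.58% in DMSO. Of 11 epithelial markers, 10 reached 1 CPM in some library, with a sum of 3810 to 3894 CPM in DMSO and 3072 to 3590 CPM in PZH, while the intestinal marker VIL1 had 4 and 1 counts in all. In edgeR's test, 4 of the 10 tested were higher in PZH and 4 lower: KRT8 went from 1877 to 983 CPM, CDH1 from 79.2 to 247 CPM and TJP1 from 139 to 344 CPM, and KRT20 from 115 counts to 2. The part of these shifts in the results was not tested. Immune markers summed to at most 2.48 CPM, endothelial markers to at most 1.44 CPM and erythroid markers to at most 0.501 CPM. Fibroblast markers summed to 10.7 to 12.99 CPM in DMSO and 19.5 to 23.5 CPM in PZH, nearly all of it COL1A1, while COL1A2 was at 0 in every library.

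The promoters are shown as a description, with no test of whether their letters bear on the changes of the genes. Of the 7 genes, 6 matched the table of RefSeq promoters (build GRCh38.p14), and the 250 bases before the start site are printed 5′ to 3′ on the gene's strand for 2 sestrins, 2 REDD genes, GADD45B and GADD45G. The files name no genome build, so these positions are those of RefSeq. Capitals mark the CCAAT box, searched as CCAAT on both strands, so that ATTGG is the same box on the opposite strand, and in GADD45G also a CARE-like element (TGATGNAA, both strands), the kind of site that ATF4 and CHOP bind.
SESN2 (chr1:28259268-28259517, plus strand): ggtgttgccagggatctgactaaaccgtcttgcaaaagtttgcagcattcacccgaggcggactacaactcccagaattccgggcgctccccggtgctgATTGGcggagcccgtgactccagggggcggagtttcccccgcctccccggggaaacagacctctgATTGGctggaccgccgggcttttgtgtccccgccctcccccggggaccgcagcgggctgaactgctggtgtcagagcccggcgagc
SESN3 (chr11:95232476-95232725, minus strand): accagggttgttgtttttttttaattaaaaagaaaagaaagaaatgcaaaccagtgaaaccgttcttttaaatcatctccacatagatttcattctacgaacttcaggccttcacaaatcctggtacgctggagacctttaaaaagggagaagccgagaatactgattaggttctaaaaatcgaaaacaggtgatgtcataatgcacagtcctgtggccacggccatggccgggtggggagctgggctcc
DDIT4 (chr10:72273674-72273923, plus strand): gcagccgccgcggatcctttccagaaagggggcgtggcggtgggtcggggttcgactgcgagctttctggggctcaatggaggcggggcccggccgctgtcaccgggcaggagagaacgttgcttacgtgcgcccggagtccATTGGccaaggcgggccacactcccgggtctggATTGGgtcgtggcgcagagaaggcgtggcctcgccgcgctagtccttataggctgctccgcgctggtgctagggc
DDIT4L (chr4:100190469-100190718, minus strand): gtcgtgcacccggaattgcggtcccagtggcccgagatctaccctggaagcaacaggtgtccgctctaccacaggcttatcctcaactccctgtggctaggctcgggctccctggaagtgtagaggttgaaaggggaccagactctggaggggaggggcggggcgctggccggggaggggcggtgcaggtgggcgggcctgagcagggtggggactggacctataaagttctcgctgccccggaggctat
GADD45B (chr19:2475877-2476126, plus strand): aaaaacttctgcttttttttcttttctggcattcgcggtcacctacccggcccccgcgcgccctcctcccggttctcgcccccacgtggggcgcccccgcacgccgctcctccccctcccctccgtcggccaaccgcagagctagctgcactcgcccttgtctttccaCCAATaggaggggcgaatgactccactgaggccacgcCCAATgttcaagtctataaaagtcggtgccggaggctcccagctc
GADD45G (chr9:89604762-89605011, plus strand): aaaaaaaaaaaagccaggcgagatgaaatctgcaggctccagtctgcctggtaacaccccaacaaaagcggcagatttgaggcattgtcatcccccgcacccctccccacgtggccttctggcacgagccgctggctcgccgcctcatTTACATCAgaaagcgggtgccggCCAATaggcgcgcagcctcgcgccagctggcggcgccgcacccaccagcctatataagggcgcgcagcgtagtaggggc

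A CCAAT box stood in 4 of the 6 matched promoters, those of SESN2, DDIT4, GADD45B and GADD45G, and in 32% of all 35116 promoters of the table over the same 250 bases. SESN2 held it 151 and 86 bases before the start, DDIT4 108 and 75 bases before it, GADD45B 82 and 45 bases before it, and GADD45G 79 bases before it. The letters were not found in these windows of SESN3 and DDIT4L. Whether the box relates to the direction of change was not tested, and GADD45A had no window. A hypoxia response core (ACGTG, both strands) was present in DDIT4, GADD45B and GADD45G, against 18.5% of all promoters. In GADD45B and GADD45G it reads as a core on each strand, overlapping in a palindrome, and not as separate sites. The CARE-like element was found, 102 bases before the start, in GADD45G alone among these 6 windows, against 3.14% of promoters, and GADD45G also held the antioxidant response core TGACNNNGC (both strands), against 10.9%. Searched in the same way, the AP-1 site TGANTCA (6.57% of promoters), the CRE TGACGTCA (1.65%) and the heat shock core GAANNTTC (5.78%) were in none of the 6. The upstream window of SESN3 was 42.8% G and C and those of the other 5 were 61.6% to 68.8%, with a median of 58% over all promoters.

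PZH-treated cells had 28.3-fold more SESN2 RNA and 14.4-fold to 14.7-fold more DDIT4, GADD45A and GADD45B RNA than DMSO cells, and GADD45G rose from near the counting floor to about 1 CPM. SESN3 and DDIT4L, the paralogs of SESN2 and DDIT4, fell 2.46-fold and 1.75-fold. Thus 5 of 7 genes passed as higher and 2 as lower at a Benjamini-Hochberg adjusted p under 0.05 in edgeR's quasi-likelihood test, beside 39.3% of all tested genes called higher and 40.9% lower. With 80.3% of genes called in either direction, a call alone sets no gene apart, and the sizes are more informative: all 5 rises and the fall of SESN3 passed 2-fold, which 15.8% of tested genes did upward and 18.9% downward. GADD45G, counted among the rises, passed the filter on low counts only through the libraries where it is high; a filter of 1 CPM in 4 libraries removed it and left 4 rises. The groups did not overlap for any of the 7 genes, as for 75.0% of genes tested. These are averages over all cells of a culture, in which fewer expressing cells and less RNA per cell cannot be told apart.

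**Figure D1:**
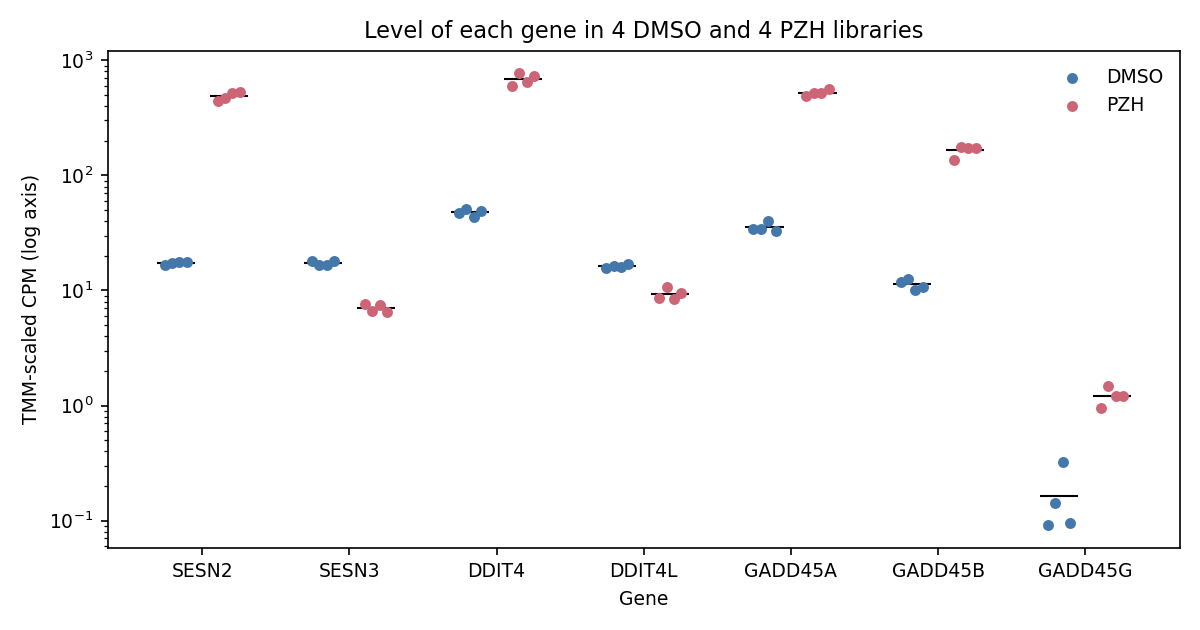
TMM-scaled CPM of the 7 genes on a log axis in 4 DMSO (blue) and 4 PZH (red) libraries, 1 point per library, with a line at each group mean. SESN2, DDIT4, GADD45A, GADD45B and GADD45G lie higher in every PZH library, and SESN3 and DDIT4L lie lower.

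SESN2 encodes the stress-induced sestrin. Its level was 16.6, 17.2, 17.8 and 17.8 CPM in DMSO replicates 1 to 4 and 443, 469, 523 and 529 CPM in PZH replicates 1 to 4, scaled by TMM factors. The DMSO libraries lay close together, and PZH replicates 3 and 4 stood above replicates 1 and 2. The mean went from 17.3 ± 0.553 to 491 ± 42.0 CPM (SD over 4 libraries), a log2 fold change of 4.82 ± 0.067 (SE, adjusted p = 7.30e-24), which was the 60th largest rise among 15006 genes. By CPM the gene stood above 46.8% of tested genes in the controls and above 98.1% after PZH.

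SESN3, a sestrin known to be induced by FOXO factors, went the opposite way. It stood at 18.0, 16.8, 16.7 and 18.0 CPM in DMSO replicates 1 to 4 and at 7.69, 6.61, 7.48 and 6.47 CPM in PZH replicates 1 to 4. Every PZH library was below every DMSO library. The log2 fold change was -1.30 ± 0.098 (adjusted p = 3.33e-11), from 17.4 ± 0.730 to 7.06 ± 0.611 CPM, and 13.7% of tested genes fell further. An antisense gene, AP000787.1, overlaps SESN3 on the opposite strand in GENCODE release 29 and had 54 counts over the DMSO and 23 over the PZH libraries, against 1486 and 479 for SESN3; whether counting used strand is not stated. The third sestrin, SESN1, a p53 target that is not among the 7 genes, also fell, with 18.9 ± 1.75 CPM in the controls and 11.5 ± 1.74 after treatment (-0.71 ± 0.10 on the log2 scale, adjusted p = 1.64e-06).

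DDIT4 encodes REDD1, the brake on mTORC1 known for its response to low oxygen, glucocorticoids and stress of the endoplasmic reticulum. It stood at 47.2, 51.4, 43.2 and 49.2 CPM in DMSO replicates 1 to 4 and at 593, 771, 648 and 729 CPM in PZH replicates 1 to 4. Replicates 2 and 4 were the highest PZH libraries and replicate 1 was the lowest. The means were 47.7 ± 3.47 and 685 ± 80.0 CPM, a 14.4-fold rise with a log2 fold change of 3.84 ± 0.077 (adjusted p = 1.41e-21). Its antisense gene in GENCODE release 29, which overlaps it, was not analysed here. The symbol DDIT4-AS1 was sought among the counted genes and not found.

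DDIT4L encodes REDD2, which also lowers mTORC1 activity. It stood at 15.6, 16.4, 15.9 and 16.9 CPM in DMSO replicates 1 to 4 and at 8.59, 10.6, 8.51 and 9.44 CPM in PZH replicates 1 to 4. The highest PZH library, replicate 2, remained below all 4 DMSO libraries. The means were 16.2 ± 0.564 and 9.29 ± 0.981 CPM, a 1.75-fold fall with a log2 fold change of -0.80 ± 0.097 (adjusted p = 8.75e-08), exceeded by 23.6% of tested genes. The antisense gene AC097460.1 overlaps it and had 5 counts in DMSO and 2 in PZH.

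GADD45A, the p53-responsive member of its family, stood at 34.5, 33.9, 40.5 and 33.0 CPM in DMSO replicates 1 to 4 and at 494, 517, 523 and 561 CPM in PZH replicates 1 to 4. DMSO replicate 3 was the highest control, far below any treated library. Its means of 35.5 ± 3.39 and 524 ± 27.9 CPM differed 14.7-fold, a log2 fold change of 3.88 ± 0.064 (adjusted p = 8.07e-23). GADD45B, an NF-kB and TGF-beta responsive member that can bind and restrain the JNK kinase MAP2K7, stood at 11.8, 12.5, 10.04 and 10.8 CPM in DMSO and at 136, 178, 173 and 173 CPM in PZH, replicates 1 to 4 in each. PZH replicate 1 stood apart below the other PZH libraries, still above every control. Its means of 11.3 ± 1.10 and 165 ± 19.4 CPM differed 14.6-fold, a log2 fold change of 3.87 ± 0.084 (adjusted p = 5.57e-21), and without PZH replicate 1 the log2 fold change was 3.97. By size of the rise, GADD45A, GADD45B and DDIT4 ranked 141, 145 and 146 among all tested genes.

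GADD45G had 2, 3, 7 and 2 counts in DMSO replicates 1 to 4 and 17, 25, 20 and 20 counts in PZH replicates 1 to 4. It passed the filter on low counts only through the PZH libraries, so its being called higher follows in part from that choice. Its level was 0.163 ± 0.1104 CPM in DMSO, about the level of 3 counts, and 1.21 ± 0.210 CPM in PZH. The log2 fold change was 2.84 ± 0.42 (adjusted p = 1.84e-06), and 3.39 without DMSO replicate 3, the library with 7 counts. Summed counts of 14 and 82 gave a depth-corrected ratio of 7.40, whose 95% exact binomial interval (4.17 to 14.1) covers counting error only. Counts of this size limit what can be said of GADD45G more than of any other of the 7 genes.

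**Figure D2:**
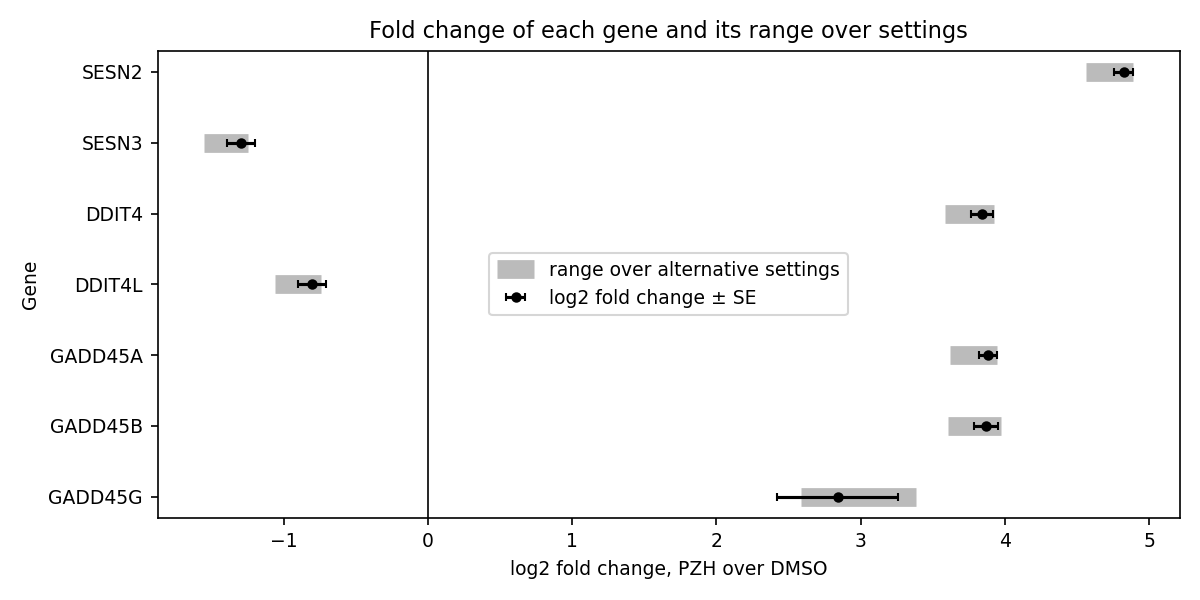
Log2 fold change of PZH over DMSO for the 7 genes (points, with SE as bars) and the range over alternative settings (grey). The rises run from 2.84 for GADD45G to 4.82 for SESN2, the falls are -1.30 for SESN3 and -0.80 for DDIT4L, and no grey range crosses 0.

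Levels of different genes were compared per kilobase of merged exons in GENCODE release 29. In DMSO the order was DDIT4 at 27.3 ± 1.99, GADD45A at 23.7 ± 2.27, GADD45B at 7.25 ± 0.703, DDIT4L at 6.23 ± 0.217, SESN2 at 5.02 ± 0.160, SESN3 at 1.70 ± 0.0714 and GADD45G at 0.124 ± 0.0835 CPM per kb (SD, n = 4). The ranges of DDIT4 and GADD45A overlapped, as did those of GADD45B and DDIT4L. These ranges do not compare neighbours within each library, so an overlap does not show that their levels were equal. In PZH the order was DDIT4 at 392 ± 45.8, GADD45A at 350.0 ± 18.6, SESN2 at 142 ± 12.2, GADD45B at 106 ± 12.5, DDIT4L at 3.57 ± 0.377, GADD45G at 0.918 ± 0.159 and SESN3 at 0.690 ± 0.0598 CPM per kb. Here the range of DDIT4 again overlapped that of GADD45A, and the range of GADD45G that of SESN3. SESN2 thus moved from the fifth place to the third, and SESN3 from the sixth to the last. The authors' annotation is not stated, so lengths are approximate; with the longest protein-coding transcript as the length, a choice made after seeing the data, the order in both groups was the same.

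Within the sestrin and REDD families the composition shifted. SESN2 made up 43.6 ± 2.26% of the summed per-kb level of the 3 sestrins in DMSO and 97.5 ± 0.488% in PZH, while SESN1 went from 41.6 ± 2.19% to 2.03 ± 0.433% and SESN3 from 14.7 ± 0.232% to 0.477 ± 0.0676%. The summed sestrin level itself went from 11.5 ± 0.504 to 146 ± 11.9 CPM per kb. DDIT4 made up 81.4 ± 0.962% of the REDD level in DMSO and 99.1 ± 0.0465% in PZH. In the GADD45 family the shares of the 2 abundant members differed by less than their spread, with GADD45A at 76.2 ± 2.83% and 76.7 ± 1.73% and GADD45B at 23.4 ± 3.03% and 23.1 ± 1.70%. The share of GADD45G was 0.387 ± 0.234% in DMSO and 0.2004 ± 0.0294% in PZH. Its libraries overlapped, at 0.225% to 0.729% in DMSO, highest in replicate 3, and 0.174% to 0.242% in PZH. The family sum went from 31.1 ± 1.95 to 457 ± 28.5 CPM per kb.

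**Figure D3:**
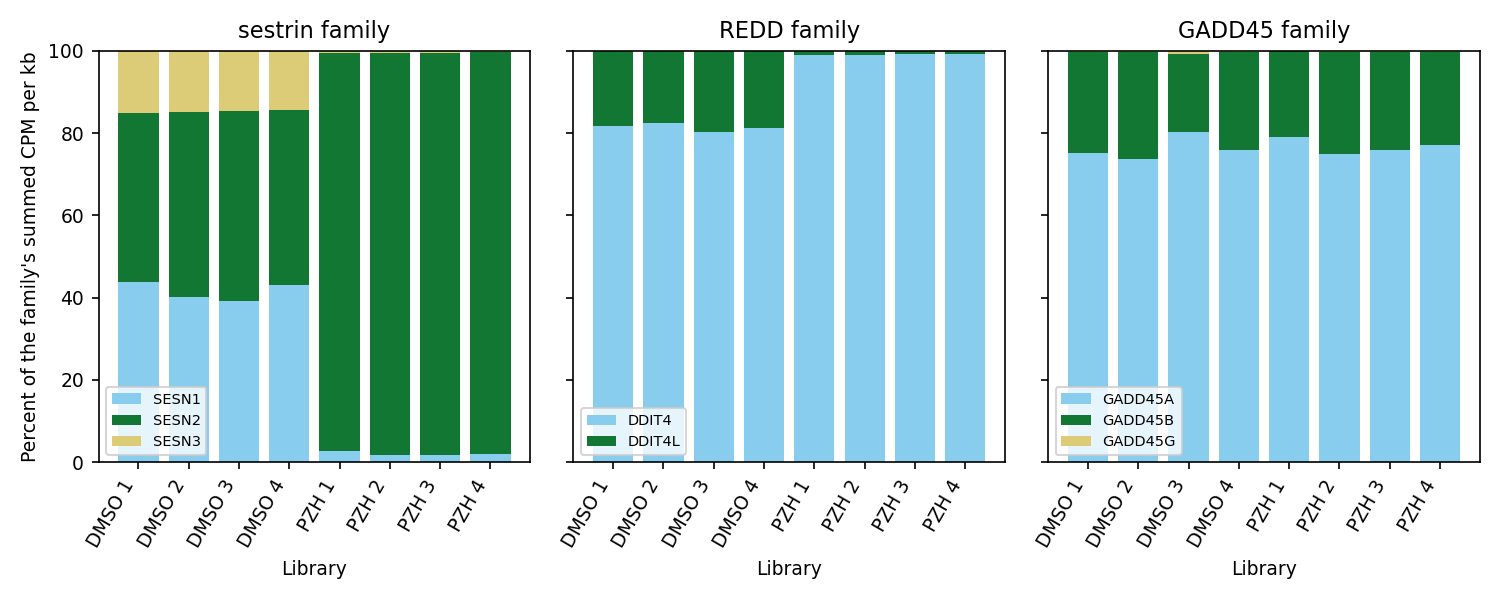
Percent of each family's summed CPM per kb contributed by each member, stacked from 0 to 100, in each of the 8 libraries. SESN2 fills 43.6% of the sestrin bars on average in DMSO and 97.5% in PZH, whereas GADD45A stays near 76% of the GADD45 bars in both groups.

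Ratios within a library do not depend on how libraries are scaled, and 5 were compared between groups by exact two-sided permutation over 70 assignments, whose smallest p is 0.0286. The log2 ratio of SESN2 to SESN3 counts was -0.11, 0.032, 0.089 and -0.015 in DMSO replicates 1 to 4 and 5.84, 6.14, 6.12 and 6.35 in PZH replicates 1 to 4. The pair had nearly equal counts in DMSO, and the ratio was 69.3-fold larger in PZH (difference 6.12 ± 0.11, SE; exact p = 0.0286, Benjamini-Hochberg adjusted p = 0.0357 over 5 ratios). The ratio of DDIT4 to DDIT4L was 25.02-fold larger (difference 4.65 ± 0.059 on the log2 scale, exact p = 0.0286, adjusted p = 0.0357). In both pairs the genes moved in opposite directions without overlap between groups, so their ratios had to separate. These p-values therefore add nothing to the results of the single genes, and only the sizes inform.

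For GADD45A to GADD45B the log2 ratio was 1.65 ± 0.25 in DMSO and 1.67 ± 0.14 in PZH, a difference of 0.023 ± 0.14 (SE) that did not pass (exact permutation p = 0.886, also after adjustment). Leaving out each library in turn moved that difference between -0.049 and 0.14. A p of this size does not show that both genes changed equally. The ratios gave GADD45G a smaller rise than GADD45A and GADD45B, by 1.01 ± 0.33 and 0.99 ± 0.42 on the log2 scale (exact permutation p = 0.0286, adjusted p = 0.0357 for each). Only 2 to 7 GADD45G counts per DMSO library stand behind these ratios, and the added 0.5 itself shrinks its rise. GADD45G was also among the tested genes only through its PZH libraries. Both ratios lost the call with 0.1 in place of 0.5 added counts (differences 0.85 and 0.83, exact p = 0.0571 for each).

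**Figure D4:**
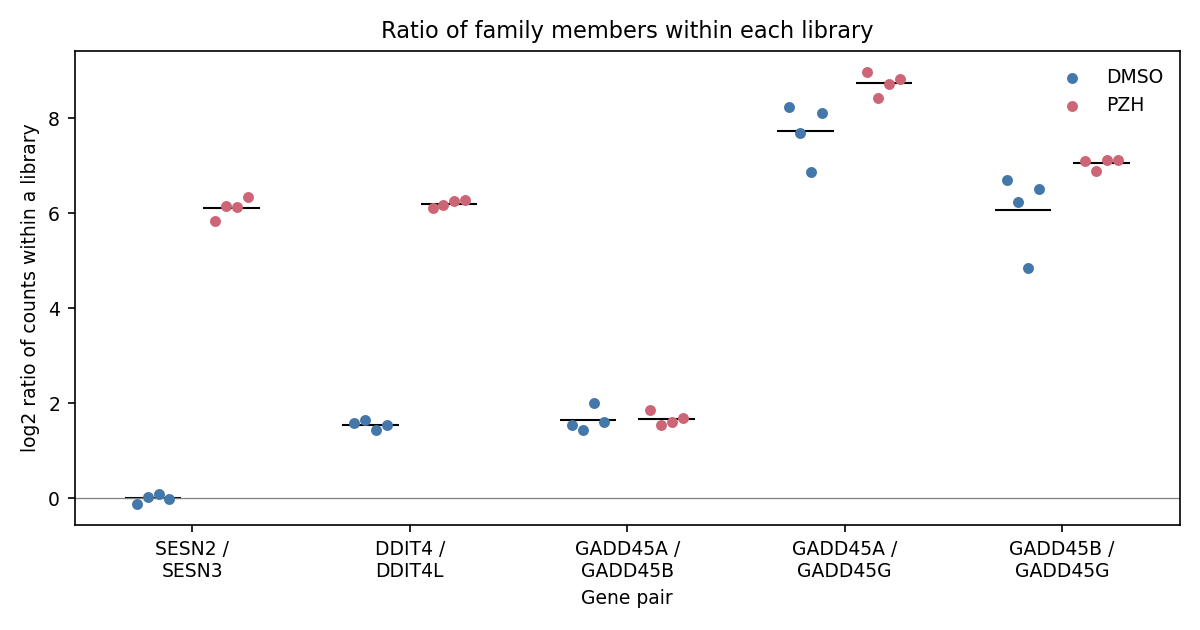
Log2 ratio of raw counts (plus 0.5) of 2 family members within each library, for 5 gene pairs, with a line at each group mean. DMSO and PZH libraries are far apart for SESN2 to SESN3 and DDIT4 to DDIT4L and overlap for GADD45A to GADD45B.

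The genes with the most similar course over the 8 libraries were sought for each of the 7 genes among 10889 others, by the root mean square difference of log2(CPM + 0.5) after subtracting the DMSO mean. For SESN2 the nearest was PPP1R15A (GADD34, a phosphatase subunit that reverses phosphorylation of eIF2-alpha), at 0.069 log2 units and with a 27.0-fold rise of its own. Next came ROBO4 and HKDC1, at 0.16 and 0.18; both are near 0 in DMSO, where the added 0.5 compresses their change. For DDIT4 they included LAMB3, a laminin chain, and HBEGF, a ligand of the EGF receptor, at 0.14 and 0.15. For GADD45A they were ETS1, BTG1 and NLRP1, at 0.094, 0.12 and 0.12, and for GADD45B LAMB3, the pseudokinase TRIB3 and ETS1, at 0.14, 0.16 and 0.17. Within 0.2 log2 units there were 7 genes for SESN2, 10 for DDIT4, 12 for GADD45A and 9 for GADD45B.

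Courses like those of the falling genes were common. Within 0.2 log2 units there were 664 genes for SESN3, led by the kinetochore gene DSN1, SH2B1 and POLR1A at 0.050, 0.053 and 0.054, and 1135 for DDIT4L, led by POLR1B, NAXE and GUSB at 0.039, 0.040 and 0.041. For GADD45G, whose change is also compressed by the added 0.5, there were 222, led by WNT9A, NFKBIA and CTBS at 0.078, 0.11 and 0.12.

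Genes around mTORC1 were called in both directions, as were the genes of the whole table, and mostly changed by less than 2-fold. The 52 tested genes encode mTORC1, the GATOR, TSC, RAG and AMPK complexes, their outputs and other proteins, among them SESN1, TXNIP and BMT2. Of these, 25 were called higher (48.1%, against 39.3% of all tested genes) and 20 lower (38.5%, against 40.9%). Their median log2 fold change was 0.17 against -0.02 over all genes tested. Of the 52, 4 rose and 3 fell at least 2-fold, beside 15.8% and 18.9% of all tested genes. Without scaling factors, 14 were higher and 23 lower, in a fit that called 4476 of all 15006 tested genes higher and 7670 lower. Log2 fold changes ran from -2.58 to 2.44 over the list, and the 2 genes of smallest p, which both rose, are named. PRKAB2, a beta subunit of AMPK, rose 5.13-fold from 29.9 ± 2.17 to 153 ± 4.48 CPM (adjusted p = 1.30e-20), and TFE3, a transcription factor of lysosome genes that mTORC1 holds in the cytosol, rose 5.43-fold from 22.5 ± 0.974 to 122 ± 13.5 CPM (adjusted p = 6.42e-19).

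Of 22 tested genes of the p38 and JNK cascades, 8 were called higher (36.4%) and 9 lower (40.9%). These shares lay near those of all tested genes (39.3% and 40.9%), and the list's median log2 fold change was -0.058. Without scaling factors, 4 were higher and 15 lower, where 4476 of all 15006 tested genes were called higher and 7670 lower. Over the list, log2 fold changes ran from -0.99 to 1.14, and the 2 genes of smallest p, which both rose, are named. MAPK8IP3, a scaffold of the JNK cascade, rose 2.21-fold from 25.8 ± 1.34 to 57.0 ± 3.78 CPM. MAPKAPK2, a kinase activated by p38, rose 1.71-fold from 62.6 ± 1.00 to 107 ± 5.23 CPM. MAP3K4, the kinase that GADD45 proteins bind, was chosen after its values were seen. Its levels of 50.5 ± 0.966 CPM in the controls and 48.7 ± 1.54 after PZH did not pass as different (log2 fold change -0.053 ± 0.051, adjusted p = 0.348). MAP3K4 was called lower without scaling factors (-0.31, adjusted p = 1.29e-05) and with upper quartile factors (-0.13, adjusted p = 0.0278). These settings shifted the median of all genes by -0.26 and -0.074.

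Of 9 genes for proteins that GADD45 members bind or act with in the cell cycle and in DNA repair, 3 were called higher (33.3%, against 39.3% of all tested genes) and 6 lower (66.7%, against 40.9%), with a median of -1.48 against -0.02 over all genes. CDKN1A rose 7.09-fold from 163 ± 1.57 to 1157 ± 54.6 CPM, and PCNA fell 8.60-fold from 312 ± 7.21 to 36.3 ± 5.30 CPM. CDK1, named after its values were seen, fell 4.08-fold from 186 ± 4.42 to 45.7 ± 7.15 CPM. Among 18 genes of transcription factors known to induce the 7 genes, 15 were called higher (83.3%, against 39.3% of all tested genes) and 2 lower (11.1%, against 40.9%), with a median of 0.82. ATF3 rose 71.02-fold from 12.7 ± 1.48 to 903 ± 82.7 CPM, and DDIT3 (CHOP) rose 88.9-fold from 4.36 ± 0.917 to 387 ± 35.01 CPM. These lists were drawn up from general knowledge with earlier results of these data known, so their counts are descriptions.

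**Figure D5:**
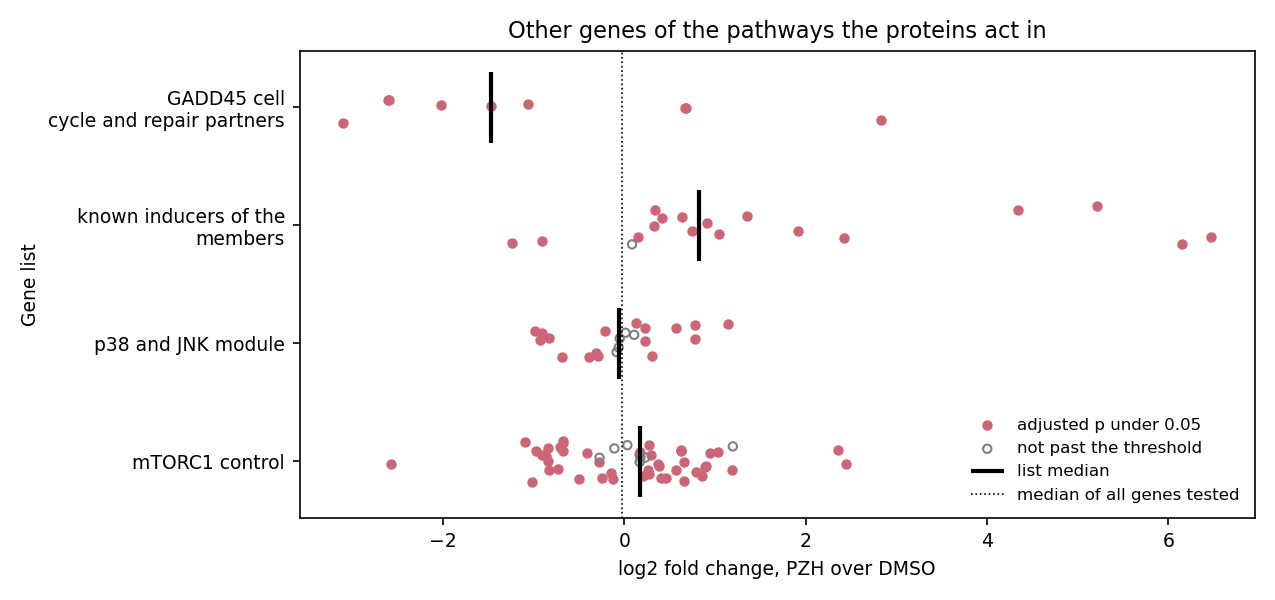
Log2 fold change of PZH over DMSO of each tested gene in 4 lists (filled where the adjusted p is under 0.05), with the list median as a bar and the median of all tested genes as a dotted line. The medians are 0.17 for mTORC1 control, -0.058 for p38 and JNK, 0.82 for the known inducers and -1.48 for the GADD45 partners.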

How the data were processed

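The authors deposited raw counts per gene symbol for 8 libraries in 1 table; 0 of its columns lacked a sample. Per the submitters' processing notes, HISAT2 2.1.0, StringTie 1.3.3b, FastQC 0.11.5 and DESeq 1.28.0 served in unstated roles. Build, annotation and strand setting: not given in the sources used here. Gene names turned into dates, 25 in all with 0.178% to 0.220% of counts, stayed in library sizes. Genes passed edgeR's filterByExpr (minimum count 10, minimum total 15), libraries were scaled by TMM, and PZH was tested against DMSO with glmQLFit and glmQLFTest, two-sided, over all 15006 genes with a Benjamini-Hochberg threshold of 0.05. The SE of a log2 fold change is its size over the root of the F statistic. The code of the fit was run on simulated counts in which few genes changed and both groups had the same spread. That run does not test the scaling or the shared spread for these data. Versions were edgeR 4.0.16, DESeq2 1.42.0 and limma 3.58.1 in R 4.3.3, with scipy 1.17.1 in Python 3.11.15.

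Groups come from sample titles. Nothing says that replicates were separate cultures, so p-values measure only the spread between these samples, which may be technical. Every pair of replicates differed by more than sampling of reads allows (2.39 to 12.3 chi-square units per degree of freedom). Same-numbered libraries did not deviate together (correlations 0.00074 to 0.011), so no pairing was used. The members and lists were chosen with earlier results of these data known. Named genes are the 7 members, the 3 most similar genes of each (mean log2 CPM of at least 2), and the 2 called genes with the smallest p of each list. A gene that this rule names is not reported here. Alternatives were other scaling, filters, tools, the replicate block, leaving out the 10 most abundant genes and leaving out each library.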

Additional observations from a re-analysis of the deposited data

Results flagged for a closer look

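GADD45B stood at 136 CPM in PZH replicate 1 against 173 to 178 CPM in the other PZH libraries, a gap of 0.875 of the group's range, past the 95% critical value of Dixon's test for 4 values. The log2 ratio of GADD45B to GADD45G was 6.89 in PZH replicate 2 against 7.10 to 7.13 in the others (gap 0.906 of the range), where GADD45G had 25 counts in replicate 2 and 17 to 20 in the others. In all, 28 groups of 4 were examined, and chance flags about 5% of them.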

How the results depend on the processing

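Each of the 7 genes kept its direction and its call under every alternative that gave a value, 17 for each gene and 16 for GADD45G, which a filter of 1 CPM in 4 libraries removed. Log2 fold changes over all alternatives ran from 4.56 to 4.89 for SESN2, -1.55 to -1.25 for SESN3, 3.58 to 3.93 for DDIT4, -1.06 to -0.75 for DDIT4L, 3.62 to 3.95 for GADD45A, 3.60 to 3.97 for GADD45B and 2.58 to 3.39 for GADD45G. Omitting scaling factors shifted the median of all genes by -0.26 and gave 4476 higher and 7670 lower calls (36.9% higher, against 49.0%), and 14 higher mTORC1 genes and 4 higher and 15 lower p38 and JNK genes. With the replicate number as a block, no member's call changed; the block gave the ratio differences 6.12, 4.65, 1.01 and 0.99, with exact p = 0.125, the smallest that 16 sign flips allow, so the lost calls there say nothing of stability. The same holds on leaving out libraries (smallest exact p 0.0571), where differences ran from 6.04 to 6.21 for SESN2 to SESN3, 4.61 to 4.68 for DDIT4 to DDIT4L, -0.049 to 0.14 for GADD45A to GADD45B, 0.72 to 1.18 for GADD45A to GADD45G and 0.58 to 1.19 for GADD45B to GADD45G. With 0.1 added counts the differences were 6.12, 4.65, 0.85 and 0.83; the first pair kept an exact p of 0.0286 but an adjusted p of 0.0714, since the adjustment covers all 5. Depth limits GADD45G most; the spread of SESN3 in both groups, and of SESN2 and DDIT4L in DMSO, was also below what counting error alone gives.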

Other observations

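The 4 PZH libraries differed in most of the rising genes by more than counting error. The coefficient of variation among PZH libraries was 8.55% for SESN2, 11.7% for DDIT4, 5.32% for GADD45A and 11.8% for GADD45B, where counting error alone gives 1.10%, 0.929%, 1.06% and 1.89%. For SESN3, DDIT4L and GADD45G the values were 8.66%, 10.6% and 17.3%, where counting error gives 9.14%, 7.97% and 22.1%. The rising genes did not share an order of the libraries: SESN2 and GADD45A were highest in PZH replicate 4, and DDIT4, GADD45B and GADD45G in replicate 2, while all 5 were lowest in replicate 1.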
